A study of Mus musculus with 5 samples.

Results

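Maternally methylated imprint control regions are CpG-rich stretches that carry DNA methylation on the copy inherited from the mother and not on the copy inherited from the father. The 10 regions described here were taken by position in the mouse genome build mm9, as windows of 2 to 6 kb around known regions, and no measured value was used to choose them. They are Peg3, Snrpn, Kcnq1ot1, Mest, Peg10, Grb10, Igf2r, Nnat, Plagl1 and Impact. Together they held 482 CpG positions listed in at least 1 library, out of 2371245 in the whole series, where each strand of a CpG is a position of its own. Of these, 72 were listed in all 5 libraries, out of 280635 such autosomal positions.

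Imprints of this kind are set in the growing oocyte, are kept through the wave of demethylation in the early embryo, and are then copied at each cell division in body tissues. A cell with an intact imprint holds a methylated and an unmethylated copy, so a population of such cells is expected to read near 50%. In blood, imprinted genes are known as regulators of growth and dormancy: Cdkn1c, a cell cycle inhibitor under the control of the Kcnq1ot1 region, keeps stem cells out of cycle.

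The 5 libraries, 3 from Idh1-R132H knock-in mice and 2 from wild-type mice, were read by extended reduced representation bisulfite sequencing. All came from LSK cells of bone marrow (negative for lineage markers, positive for Sca1 and Kit), the compartment in which the stem cells of blood and their early progeny are found. Mutant Idh1 makes 2-hydroxyglutarate, a metabolite that inhibits the TET enzymes, which oxidise methylated cytosine. The labels give the strain background as 129Ola x C57Bl/6J for both genotypes. They give no age, sex, number of mice per library or driver of the knock-in allele, and nothing says whether libraries of a group came from separate animals, so each p-value measures only the spread between these libraries. The files hold no RNA, so the labelled cell type could not be checked against its marker genes.

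Depth differed widely between the libraries. Within the 10 windows, knock-in replicates 1, 2 and 3 listed 297, 139 and 411 positions, and wild-type replicates 1 and 2 listed 102 and 285. Listed positions in the windows had a median coverage of 43, 19 and 42 reads in the 3 knock-in libraries, against 20 and 28 in wild type. Knock-in replicate 2 and wild-type replicate 1, the shallowest of the 5, also stood apart on chromosome X, where 159 CpG-dense tiles of 1 kb had a mean level of 23.9% and 23.8%, against 3.01% to 3.74% in the other libraries. Depth and the kind of chromosome X methylation cannot be told apart here, so results are given over all 5 libraries and over knock-in replicates 1 and 3 with wild-type replicate 2, called the deeper libraries below. That choice of libraries was made after the data were seen.

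The sequences below were chosen to show what kind of DNA lies at the promoters of these genes. Promoters come from RefSeq on build GRCm38, which is not the build of the files, and 8 of the 10 genes had an entry. Each is the 250 bases before a transcription start, 5′ to 3′ along the gene, with CpGs in capitals. Plagl1 is shown because its promoter lies in the imprint window, Grb10 because this start lies outside its window and can be set against it, and Mest because it holds the motif TGCCGC on either strand at 2 places.
Plagl1, chr10:13090582-13090831, plus strand: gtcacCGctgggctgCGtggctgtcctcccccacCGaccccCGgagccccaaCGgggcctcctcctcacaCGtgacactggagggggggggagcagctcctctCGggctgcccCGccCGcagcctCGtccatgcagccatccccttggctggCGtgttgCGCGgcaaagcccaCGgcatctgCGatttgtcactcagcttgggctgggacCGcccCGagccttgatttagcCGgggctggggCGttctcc
Grb10, chr11:12037421-12037670, minus strand: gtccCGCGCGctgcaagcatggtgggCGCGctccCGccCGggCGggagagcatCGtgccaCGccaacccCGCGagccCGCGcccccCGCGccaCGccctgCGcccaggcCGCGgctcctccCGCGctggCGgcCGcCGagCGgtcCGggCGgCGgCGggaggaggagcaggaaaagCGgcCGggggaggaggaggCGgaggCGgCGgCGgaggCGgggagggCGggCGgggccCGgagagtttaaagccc
Mest, chr6:30737800-30738049, plus strand: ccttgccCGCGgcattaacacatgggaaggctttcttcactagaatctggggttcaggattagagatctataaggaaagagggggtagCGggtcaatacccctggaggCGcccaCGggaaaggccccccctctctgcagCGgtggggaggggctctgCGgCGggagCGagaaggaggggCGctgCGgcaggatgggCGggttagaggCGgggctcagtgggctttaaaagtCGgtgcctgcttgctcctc

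The Plagl1 sequence holds 19 CpGs and is 70.4% G and C, and the Grb10 sequence holds 40 CpGs and is 81.2% G and C. TGCCGC is the sequence that the zinc finger protein ZFP57 binds when methylated, and ZFP57 is known for keeping imprints in the embryo. It was searched on both strands and was found in 1 place in the Plagl1 sequence, in none in the Grb10 sequence, and in 3 of the 14 promoter entries of the 8 genes, 2 of which are overlapping Mest starts. Of 32851 promoter entries of the same length, 8.68% held it. A match is a description of the letters only.

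The promoters were placed on the listed positions by the spacing of their CpGs, without converting coordinates. For Plagl1, 27 of 27 listed positions fell on CpGs of the sequence and its first bases after the start at 1 offset, and 3 at the next best. For the Grb10 start, 43 of 43 did, and 2 at the next best. Over each library's own positions, the Plagl1 promoter with the first bases after its start was at 52.1%, 100% and 31.4% in knock-in replicates 1, 2 and 3. It was at 44.2% and 22.6% in wild-type replicates 1 and 2. These levels are from 23, 6, 27, 12 and 16 positions in that order, so the libraries were not read at the same CpGs. Of the 27 Plagl1 positions, 17 lay in the 250 bases before the start, and most positions of wild-type replicate 1 lay after it. Of the 43 Grb10 positions, 40 lay before the start. The Grb10 start outside the imprint window was at 0.719%, 0.439% and 0.291% in the knock-in libraries, against 0% and 1.15% in wild type. The more CpG-dense of the pair was therefore at or under 1.15% in all 5 libraries, while the imprinted one was partly methylated in 4 and fully methylated at 6 positions in knock-in replicate 2.

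In the deeper libraries all 10 windows could be measured over the same positions, 224 CpGs in all. The level of a window is the unweighted mean of its CpG levels, where a CpG's level is its methylated reads as a percent of all reads showing C or T. The 10 windows averaged 51.8% and 38.7% in knock-in replicates 1 and 3, against 48.9% in wild-type replicate 2. Between 35% and 65% lay 7, 8 and 7 of the 10 windows in these libraries. Knock-in replicate 1 was above the wild-type library in 5 windows and below it in 5, and knock-in replicate 3 was above it in 2 and below it in 8, so the knock-in libraries did not differ from wild type in the same way. With 1 wild-type library in this set there is no test.

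**Figure D1:**
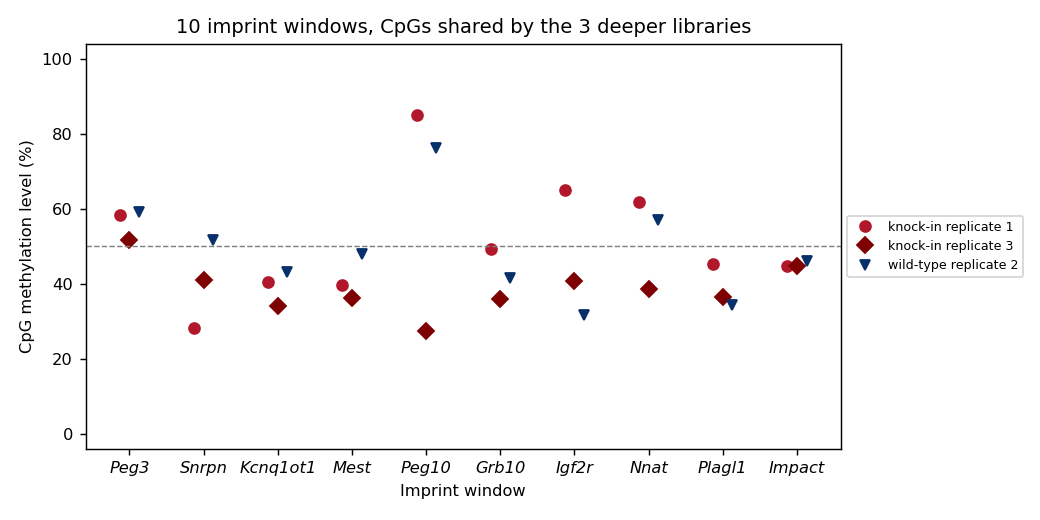
Level (%) of each of the 10 imprint windows over CpGs shared by the 3 deeper libraries; each point is 1 library and the dashed line marks 50%. Most points lie near the line, and the widest gaps are at Peg10 and Igf2r.

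The first 3 regions belong to genes that set growth. Igf2r encodes the receptor that clears the growth factor IGF2, and its window (chr17:12934001-12936000), in an intron at the promoter of the silencing RNA Airn, read 65.1% and 40.7% in knock-in replicates 1 and 3, against 31.8% in wild-type replicate 2, over 15 CpGs. Grb10 encodes an adaptor that dampens insulin and IGF receptor signalling, and its window (chr11:11925001-11928000) was at 49.4%, 36.0% and 41.6% over 57 CpGs. Plagl1, a zinc finger factor that restrains proliferation, was at 45.3%, 36.5% and 34.4% over 51 CpGs of its window (chr10:12809001-12813000). Grb10 and Plagl1, which held the most CpGs, had ranges of 13.3 and 10.9 points over the libraries, against 33.3 points at Igf2r.

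A further 2 domains are run by long noncoding transcripts. The Kcnq1ot1 window (chr7:150480001-150483000) covers the promoter of the RNA that silences Cdkn1c and its neighbours on the paternal copy, and was at 40.5%, 34.0% and 43.1% over 19 CpGs. The Snrpn window (chr7:67147001-67151000), the control region of the domain lost in Prader-Willi and Angelman syndromes, was at 28.1%, 41.1% and 51.7% over 7 CpGs. Both knock-in libraries lay below the wild-type library at each.

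The other 5 genes are expressed from the paternal copy and make proteins. Peg3, a zinc finger protein (window chr7:6679001-6685000), was at 58.5%, 51.6% and 59.2% over 8 CpGs. Mest, an alpha/beta hydrolase family member (chr6:30684001-30690000), was at 39.7%, 36.2% and 47.9% over 6 CpGs. Impact, an inhibitor of the translation kinase GCN2 (chr18:13130001-13134000), was at 44.8%, 44.8% and 46.0% over 23 CpGs. Impact thus had the narrowest range of the 10 windows in these libraries, 1.23 points. That range is of means over 4 stretches, and a single stretch could differ more. On the reverse strand, 3 of its CpGs at 13131972 to 13132015 were at 64.5%, 44.2% and 60.4%. Nnat, a small membrane protein (chr2:157385001-157388000), was at 61.8%, 38.7% and 57.0% over 31 CpGs. Peg10, derived from a retrotransposon and needed in the placenta (chr6:4697001-4701000), was at 85.0%, 27.4% and 76.3% over 7 CpGs. The range of 57.6 points at Peg10 was the widest of the 10, and all 7 of its CpGs lay within 50 bases of each other on the same strand. Other windows were also read over a small part of their length. The Peg3 CpGs lay at 6682973 to 6683039 and the Mest CpGs at 30689254 to 30689334, each in a window of 6 kb.

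Outside the windows, within 5 kb on either side, few positions were shared by the deeper libraries. On the side of lower coordinates, the mean of the 3 libraries was 95.9% beside Kcnq1ot1 (2 CpGs), 76.2% beside Mest (6 CpGs) and 87.3% beside Nnat (5 CpGs). On the side of higher coordinates it was 95.4% beside Peg10 (13 CpGs) and 0.278% beside Nnat (31 CpGs). The Nnat window, at a mean of 52.5%, thus lay between methylated CpGs on the lower side and nearly unmethylated CpGs on the higher side.

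Over all 5 libraries, 7 windows held at least 3 shared CpGs. Peg10 and Igf2r had none and Nnat had 1. Of the 72 shared CpGs, 51 (70.8%) had a mean level of 35% to 65%, against 1.79% of the 280635 autosomal positions. The 72 lay in 14 strand stretches, runs of CpGs on the same strand with neighbours at most 50 bases apart, which are often read in the same molecules, so they are not 72 independent measurements.

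The 7 windows averaged 46.3%, 50.5% and 40.3% in knock-in replicates 1, 2 and 3 and 36.8% and 49.7% in wild-type replicates 1 and 2. The genotypes overlapped. The knock-in mean was 2.50 points higher (exact 2-sided permutation test over 10 divisions of the libraries, p = 0.6; the smallest p this design allows is 0.1). Within the pair with methylated chromosome X islands the difference was 13.8 points, and within the other 3 libraries it was -6.38 points, so the direction did not hold within the kinds of library. It was also -3.98 points without wild-type replicate 1 and -1.80 points without the Kcnq1ot1 window.

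**Figure D2:**
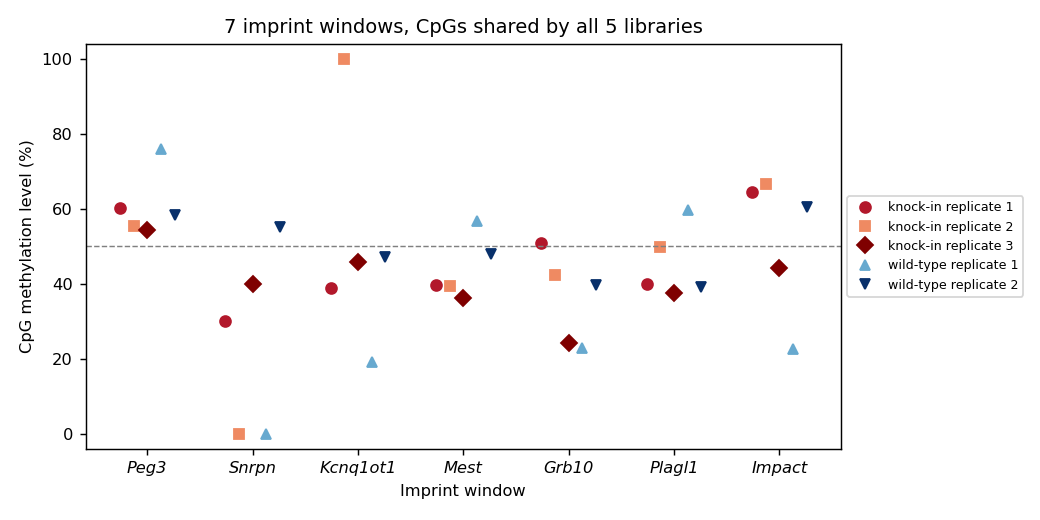
Level (%) of the 7 imprint windows with at least 3 CpGs shared by all 5 libraries; each point is 1 library and the dashed line marks 50%. Knock-in replicate 2 and wild-type replicate 1 spread most, from 0% at Snrpn to 100% and 76.0%.

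Among the growth genes, the Grb10 window was at 51.0%, 42.4% and 24.2% in the knock-in libraries, against 23.0% and 39.7% in wild type over 13 shared CpGs. Plagl1 was at 40.0%, 49.8% and 37.5% in the knock-in libraries, against 59.6% and 39.1% in wild type over 37 shared CpGs. The groups overlapped at both genes. The differences, knock-in minus wild-type, were 7.81 points for Grb10 and -6.93 points for Plagl1, and both changed sign without wild-type replicate 1, to -0.562 and 3.31 points.

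The Kcnq1ot1 window read 38.9%, 100% and 45.9% in the knock-in libraries, against 19.2% and 47.3% in wild type, over 3 shared CpGs of 1 stretch. The difference was 28.3 points, and 0.180 points over each library's own positions, where knock-in replicate 2 was at 65.8% and wild-type replicate 1 at 47.6%. The value of 100% in knock-in replicate 2 rested on 14 reads per CpG. At position 150481280 all 14 were methylated (95% Wilson interval 78.5% to 100%). This and other intervals cover counting error only. Next to this stretch, 4 CpGs at 150481374 to 150481413 were at 31.6% in knock-in replicate 2 and at 97.8% in knock-in replicate 1. On the reverse strand, the stretch at 150481247 to 150481348, which spans the bases of the shared CpGs, was at 64.6% in wild-type replicate 1. There the strands of the same CpG parted: 150481310 was at 19.2% on the forward strand and its partner 150481311 at 65%. A CpG at 150482809, listed in knock-in replicate 2 alone, was at 100% with 11 reads. A high or low reading in these libraries thus did not hold at every listed stretch of the window.

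At Snrpn, 3 shared CpGs were at 30.1%, 0% and 40.0% in the knock-in libraries, against 0% and 55.3% in wild type. The deepest reading of 0% was 0 of 31 reads in knock-in replicate 2 at position 67150115, and in wild-type replicate 1 it was 0 of 16 reads. Taking 3 counts as the limit that a count of 0 allows, these readings allow levels of up to 9.68% and 18.8%, and their 95% Wilson intervals reach 11.03% and 19.4%. Other stretches of the window were listed in these libraries. They read 36.5% at 2 CpGs of 67149443 to 67149537 in knock-in replicate 2, and 33.3% at 2 CpGs of 67149466 to 67149536 in wild-type replicate 1. A single CpG at 67149325, listed in wild-type replicate 1 alone, was also at 0%, with 14 reads. The 0% readings thus did not cover every listed stretch in either library.

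Over the shared CpGs, Mest was the 1 window of the 7 in which the genotypes did not overlap. It was at 39.7%, 39.4% and 36.2% in the knock-in libraries, against 56.8% and 47.9% in wild type, a difference of -13.9 points (knock-in 38.5% ± 1.92, SD, n = 3; wild-type 52.4% ± 6.26, SD, n = 2). The knock-in libraries were above both wild-type libraries in 0 of the 7 windows, beside 9.03% of the windows and tiles. All 3 lay below both wild-type libraries in 3.6% of the 24320 windows and tiles tested and in 4.09% of the 1541 tiles with a mean level of 20% to 80%. On the forward strand, 3 CpGs at 30689254 to 30689288 were at 36.0%, 42.9% and 27.0% in the knock-in libraries, against 68.4% and 60% in wild type. On the reverse strand, 3 CpGs at 30689289 to 30689334 were at 43.4%, 36.0% and 45.5% against 45.2% and 35.9%, so there the groups overlapped. Positions 30689288 and 30689289 are the strands of the same CpG. Its difference was -28.2 points on the forward strand, with at least 13 reads. On the reverse strand, with at least 26 reads, it was -0.00194 points. With at least 20 reads required, which leaves out the forward stretch, the Mest difference was 1.08 points. With pooled reads it was -8.50 points. Over each library's own positions it was -2.15 points and the genotypes overlapped, at 75.5%, 33.6% and 41.5% against 56.8% and 47.9%.

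Peg3 was at 60.2%, 55.5% and 54.4% in the knock-in libraries, against 76.0% and 58.3% in wild type, a difference of -10.4 points over 6 CpGs. It was -1.56 points without wild-type replicate 1 and -19.3 points without wild-type replicate 2. In knock-in replicate 2 its strands parted: the forward stretch was at 33.3% and the reverse stretch at 100%, with about 36 reads at each CpG. Impact was at 64.5%, 66.7% and 44.2% in the knock-in libraries, against 22.7% and 60.4% in wild type, a difference of 16.9 points over 3 CpGs that was -1.95 points without wild-type replicate 1, 35.8 points without wild-type replicate 2 and 9.78 points over own positions. The single shared CpG of Nnat, at 157387595, was at 88.6%, 100% and 82.3% in the knock-in libraries, against 43.8% and 80% in wild type.

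None of the 7 windows passed edgeR's quasi-likelihood test at an adjusted p under 0.05, and 0 did so at an unadjusted p under 0.05. Across the 24320 windows and tiles, 0% were called higher and 0% lower, and 0.843% and 0.748% were higher and lower at the unadjusted threshold. Among the windows edgeR's smallest p was 0.307, at Kcnq1ot1, with an edgeR adjusted p = 1. The alternative, limma on arcsine levels, also called 0 windows, and gave 1 at an unadjusted p under 0.05, Mest (limma adjusted p = 0.901), beside 2.66% of windows and tiles higher and 1.22% lower at that threshold. The knock-in mean was higher in 3 windows and lower in 4, with a median difference of -4.28 points, beside 0.0744 points over all windows and tiles and 4.47 points over tiles at 20% to 80%. In simulated data with the coverage of these libraries, edgeR recovered 0% of features changed by 20 points and 18.5% of those changed by 40 points. On the same simulated data, plain limma recovered 7% and 31.5%, with 16 false calls where nothing changed, and limma with 0.5 reads added recovered 31% and 79.5%, with 0 false calls where nothing changed and 6 at 40 points. On the real libraries, limma with 0.5 reads added called 0 windows. A call of 0 by edgeR therefore says little about differences of the size seen at Mest or Impact. In the simulation the changed features were drawn from lower levels only, and the spread between libraries was an assumed value. For edgeR and for both forms of limma, recovery was not tested separately for features with the levels and spread of the windows. The median SD over the 5 libraries was 12.1 points in the 7 windows, beside 1.32 points over all windows and tiles.

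At single CpGs, edgeR called 0 of the 72 positions and gave 0 at an unadjusted p under 0.05, beside 0.000356% of all positions called higher and 0% called lower, and 0.201% higher and 0.0652% lower unadjusted. limma on arcsine levels called 0 of the 72 and gave 8 at an unadjusted p under 0.05. These lay in the Mest forward stretch at 30689254 to 30689288, where knock-in was lower, and in the Plagl1 forward stretch at 12810846 to 12810933, where it was higher. The reverse-strand partners did not share these differences. At Plagl1 the partners at 12810869, 12810879 and 12810892 had differences of -18.6, -11.3 and -14.2 points, knock-in minus wild-type. At Mest the partner at 30689289 had a difference of -0.00194 points. CpGs of a stretch are often read in the same molecules, so the 8 are not independent. Over all positions limma called 0.0289% higher and 0.0132% lower, and gave 0.938% and 0.402% unadjusted. The limma share was not computed for positions at 20% to 80%. Of the 72 positions, the knock-in mean was higher at 29 and lower at 43. All knock-in libraries were above both wild-type libraries at 7 CpGs and below both at 4, beside 2.38% and 0.987% of all autosomal positions shared by the 5 libraries and 13.4% and 5.56% of those with a mean of 20% to 80%. The counts, 7 and 4 of 72, were not above the latter background. The largest difference within Mest was at 30689261 on the forward strand, which read 35.5%, 42.9% and 24.5% in the knock-in libraries, against 69.2% and 60% in wild type (difference -30.3 points, edgeR adjusted p = 1).

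The windows varied between libraries much as other partly methylated DNA did. The SD over the 5 libraries had a median of 12.1 points in the 7 windows, from 8.35 at Mest to 30.0 at Kcnq1ot1, beside 11.8 points in the 1541 tiles at 20% to 80% and 1.32 points over all windows and tiles. Within a library, the SD over the 7 windows was 12.6, 30.2 and 9.38 points in the knock-in and 27.4 and 8.56 points in the wild-type libraries. The pair of shallow libraries thus had the widest spread over windows in both genotypes.

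CpGs of a stretch lay close together within a library, while the level of a stretch differed between libraries. The 482 positions fell into 87 strand stretches. The median range of CpG levels within a stretch and library was 7.71 points, over 201 pairs of a stretch and a library with at least 2 CpGs. The median range of a stretch between libraries was 41.4 points, over 51 stretches listed in at least 2 libraries, where each library's level is taken over the CpGs it lists. CpGs of a stretch are often read in the same molecules, while libraries hold separate reads and their own counting error. The ranges are therefore not like measures and are given as a description.

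Extreme readings moved with depth. Stretches at or under 5% or at or over 95% made up 28 of 87 readings (32.2%) with 10 to 19 reads, 5 of 81 (6.17%) with 20 to 49 reads and 1 of 55 (1.82%) with 50 reads or more. Between 35% and 65% lay 29.9%, 54.3% and 58.2% of readings in these classes. By library, 14.1%, 41.7% and 13.6% of the listed positions were at these extremes in knock-in replicates 1, 2 and 3 and 10.8% and 4.21% in wild-type replicates 1 and 2. The part of depth in these readings was not tested, and libraries, stretches and classes share reads.

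**Figure D3:**
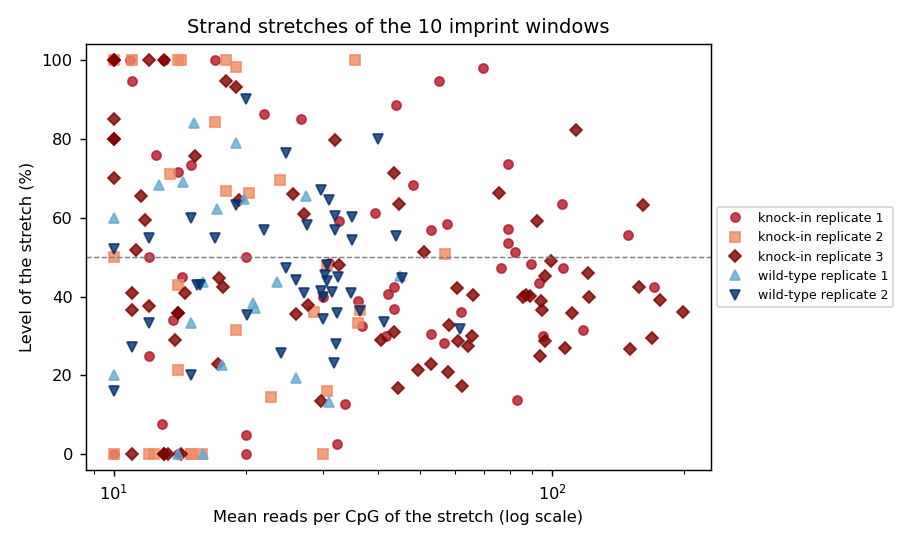
Level (%) of each strand stretch of the 10 windows in each library against its mean reads per CpG (log scale); each point is 1 stretch in 1 library and the dashed line marks 50%. Readings at 0% and 100% are mostly at the left, and with 50 reads or more the levels run from 13.9% to 97.8%.

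Where both strands of a CpG were listed, they are the same sites read in different molecules. For CpGs with a mean of 20% to 80%, the median gap between strands in the windows was 20.4, 50.9 and 18.6 points in the knock-in and 24.4 and 12.5 points in the wild-type libraries. Over all autosomal CpGs chosen in the same way it was 41.7, 51.6 and 41.7 points and 38.5 and 30.7 points. The choice on the mean of both strands shapes these gaps, so they are given as a description.

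Plagl1, with the most shared CpGs, shows the pattern along a window. Over shared CpGs, the forward stretch at 12810846 to 12810933 was at 47.2%, 47.6% and 42.6% in the knock-in libraries, against 43.6% and 34.4% in wild type, a range of 13.3 points. The reverse stretch at 12810869 to 12810918, within the same bases, was at 13.9%, 15.9% and 43.4% in the knock-in libraries, against 37.1% and 41.3% in wild type. In the forward stretch at 12810619 to 12810740, knock-in replicate 2 and wild-type replicate 1 were at 71.0% and 69.2%, and the other 3 libraries between 33.9% and 42.4%. The order of the libraries differed between stretches, and the genotypes overlapped in each of the 4 stretches listed in all 5 libraries.

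**Figure D4:**
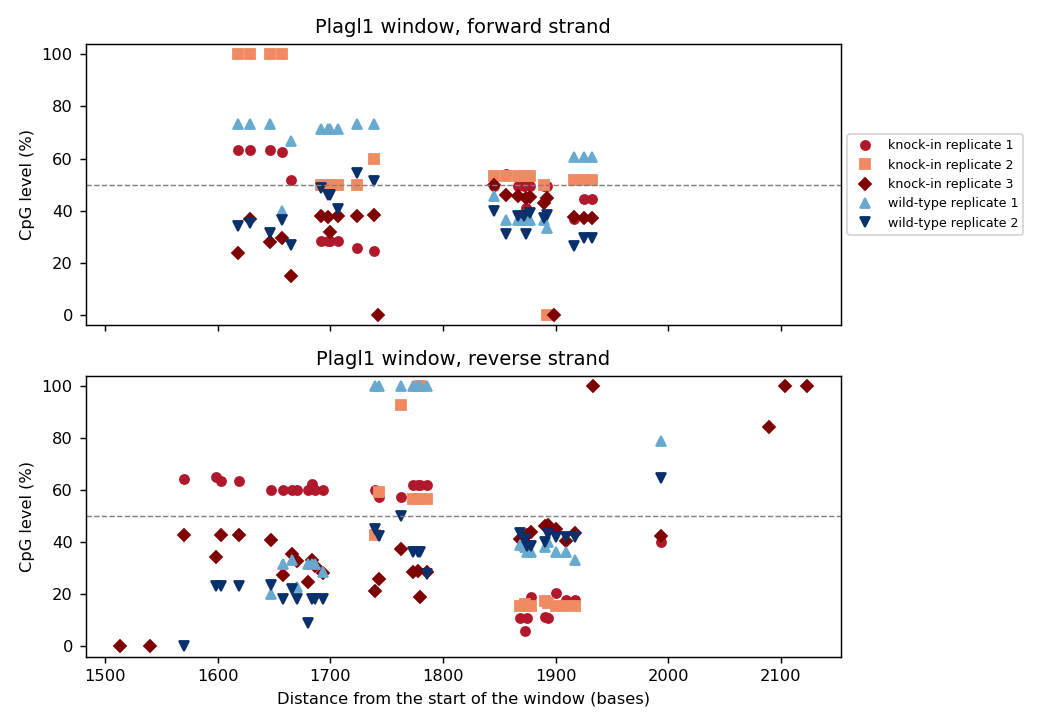
Level (%) of each listed CpG of the Plagl1 window by strand against its distance from the start of the window in bases; colours mark libraries and the dashed line marks 50%. Neighbouring CpGs of a library mostly lie at like heights, and the order of the libraries changes from stretch to stretch.

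Regions methylated on the paternal copy were the nearest comparison. The H19 region had no CpG shared by all libraries. At the Dlk1-Dio3 region, 4 shared CpGs of 1 stretch were at 100%, 71.5% and 95.4% in the knock-in libraries, against 88.5% and 96.3% in wild type. The mean of the 7 maternally methylated windows lay 45.6 points below it on average, and below it in 5 of 5 libraries (the exact 2-sided sign-flip test over the libraries gave the smallest p it can give, which is above 0.05). The windows of both regions were placed from general knowledge of the loci. The level at Dlk1-Dio3 was nearer 100% than 50% in 4 of 5 libraries, knock-in replicate 2 being the exception. An intact imprint on the paternal copy is also expected to read near 50%. The 45.6 points thus rest on these 4 CpGs and do not show a difference between maternal and paternal imprints.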

How the data were processed

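Extended reduced representation bisulfite libraries of 3 knock-in and 2 wild-type LSK samples were analysed. Per the labels' protocols, 5 ng of DNA was cut with MspI, which cuts at CCGG, so only CpGs near such sites are read. The submitters' processing notes name CASAVA 1.7, Bismark and mm9; no Bismark version is named. Each deposited table covers 1 library and holds, per the file headers, coverage as read counts for each CpG and strand, at least 10 at each listed position, and the percent of C and of T. Neither removal of duplicate reads nor correction for incomplete conversion is given, and PCR reads are not independent molecules.

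Methylated and unmethylated reads were computed as coverage times percent. Windows needed at least 3 CpGs with 10 reads in all 5 libraries. They were tested with the 24313 other autosomal 1 kb tiles that met the same minimum by edgeR 4.0.16 (quasi-likelihood, Benjamini-Hochberg at 0.05), and CpGs likewise over 280635 positions, with limma 3.58.1 on arcsine square root levels as an alternative. Both were tested on simulated data. The plain limma fit, which met features with no spread, called 16 features where none was changed, so limma was also run with 0.5 reads added to each side, a choice made after that was seen. R 4.3.3, Python 3.11.15, numpy 2.4.6, pandas 2.3.3 and scipy 1.17.1 were used.

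The members and lists were chosen with earlier results of these data known. The CpGs named are, in each window, those with the largest difference and the highest and lowest mean, and stretches named beside them were chosen after their values were seen. An mm9 genome was not used here, so levels by sequence motif and gene annotation of the windows are not given. Window positions are on mm9 and promoters on GRCm38. Promoters were placed where at least 6 listed positions within 20 kb of a window all fell on their CpGs.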

Additional observations from a re-analysis of the deposited data

Results flagged for a closer look

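At the Kcnq1ot1 window, the genotype difference ran opposite ways in the kinds of library told apart by chromosome X. Knock-in replicate 2 was 80.8 points above wild-type replicate 1, the pair with methylated chromosome X islands. Knock-in replicates 1 and 3 both lay below wild-type replicate 2, by differences of -8.39 and -1.42 points and of -4.90 points on average. The gap between these differences is 85.7 points. Over each library's own positions in the window, knock-in replicate 2 was at 65.8% and wild-type replicate 1 at 47.6%, and the genotype difference over all libraries was 0.180 points in place of 28.3. In the reverse stretch at 150481247 to 150481348, wild-type replicate 1 was at 64.6%, and knock-in replicate 2 listed no position there. The 85.7 points rest on 3 CpGs of 1 stretch and on 1 library of each genotype in the first pair, and the difference was not tested.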

How the results depend on the processing

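The mean difference of 2.50 points over the 7 windows was -3.98 to 8.99 points when each library was left out in turn, the lowest without wild-type replicate 1, and -1.80 (without Kcnq1ot1) to 5.24 points when each window was left out. It was 13.8 points within libraries with methylated chromosome X islands, -6.38 points within the others and, a choice made after seeing the data, -3.64 points over positions of the 3 deeper libraries. The cause was not tested. The share of CpGs at a mean of 35% to 65% was 45.6% over the 482 positions listed in any library. Over the shared CpGs it was 95.8% with limits of 25% and 75%. Single windows changed sign as follows. Leaving out a library in turn, Snrpn ranged from -31.9 to 23.4 points (7.41 without the second knock-in library), Grb10 from -0.562 to 16.2, Plagl1 from -17.2 to 3.31 and Impact from -1.95 to 35.8, with the changed sign of the last 3 when wild-type replicate 1 was out. Mest was 1.08 at 20 reads, and Grb10 and Plagl1 were -1.05 and 0.619 over own positions. No window and no imprint CpG was called by edgeR or limma, with or without 0.5 reads added, in any alternative run. Over all CpG positions, edgeR called 1, plain limma 118 and limma with 0.5 reads added 0. The maternal minus paternal difference ranged from -51.7 to -43.2 points when each library was left out. No paired analysis was possible because the labels carry no replicate numbers; the numbers used here follow the order of deposit and pair nothing. At 20 reads, 3 windows remained and the paternal comparison gave no value. The comparison of windows with their flanks over all 5 libraries and of TGCCGC CpGs with others gave no value, for want of shared flank CpGs and of an mm9 genome, and the count of windows called was not fitted within kinds of library.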

Other observations

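In the Grb10 window, the forward-strand CpG at 11925896 was at 0% in the 4 libraries that list it, which are all but wild-type replicate 1, with 16, 16, 60 and 40 reads. The CpG 6 bases before it, at 11925890, was at 56.2%, 0%, 33.3% and 40.0% in these libraries. On the reverse strand its partner at 11925897 was listed in 2 libraries, at 20.6% (knock-in replicate 3) and at 29.3% (wild-type replicate 2). The position was chosen after its values were seen.

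In knock-in replicate 1, the 20 listed CpGs of the Mest window had a mean level of 75.5%, against 39.7% over the 6 CpGs shared by all libraries. The shared CpGs had a median coverage of 76 reads in this library. Of the others, 7 at 30688188 to 30688222 were at 100% with a mean of 10.9 reads. A further 5 at 30688770 to 30688809 were at 94.5% with 11 reads, and 1 at 30685841 was at 0% with 10. The 75.5% thus rests largely on stretches near the minimum of 10 reads.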
